A study of Ovis aries with 95 samples.

Results

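Vascular endothelial growth factor A (VEGFA), endothelin 1 (EDN1), the glucose transporter GLUT-1 (the product of SLC2A1), erythropoietin (EPO) and the erythropoietin receptor (EPOR) were followed in the developing sheep brain. They were 5 of the 14342 gene identities on the array, and were found by the names printed on their 8 probes among 15008 gene probes. The array lists EDN1 under an older name, PPET-1 (preproendothelin 1). The members were chosen by their measured levels at the last fetal age (145 d) and on the first day after birth, between which some of them differed, so values for that step are given as a description without a test. The 5 genes were tested only on the arrays from 80 to 130 d, which that step did not use, while genes of the pathway lists and cell type markers were tested at birth as well.

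The frontal cortex, brainstem, hippocampus and hypothalamus were taken from untreated sheep, either fetuses aged 80, 100, 120, 130 or 145 d or lambs on day 1 of life. The group called 100 d was collected at 96 to 100 d and the group called 145 d at 142 to 144 d, before any sign of labor. Each of the 24 groups of region and age held 4 arrays, except hippocampus at 100 d, of which 3 were analysed here, and the 95 arrays carried 1 tissue sample each. Every group included 1 set of twins that the labels do not mark, so the 4 samples of a group were not 4 unrelated animals, and the p-values treat them as if they were. With 4 animals at each age, the regions of an age came from the same animals, and the tests between regions treat their arrays as independent.

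These genes belong to the response of tissues to oxygen. When oxygen is scarce, the transcription factors of the hypoxia inducible factor (HIF) family escape degradation and raise transcription of VEGFA, which makes blood vessels grow, of EDN1, a peptide of endothelial cells that constricts vessels, of SLC2A1, whose product carries glucose across the blood-brain barrier, and of EPO, the hormone that keeps red cell precursors alive. EPOR receives the EPO signal on red cell precursors and is also known on neural cells. The fetus lives at a low arterial oxygen tension, which rises within minutes of the first breath.

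The sequences show what each measurement can separate. The array carried a pair of probes each for VEGFA, GLUT-1 and EPO, and a single probe each for EDN1 and EPOR, all of 60 bases. In each pair the probes were shifted by 1 base along the same mRNA, so they read the same stretch of transcript and are a technical repeat, not an independent measurement. The probes of VEGFA, EPO and EPOR are printed as the array's annotation gives them, 5′ to 3′, with capitals marking the 1 base at an end that the other probe of the pair lacks (EPOR, with a single probe, has none).
VEGFA probe 2: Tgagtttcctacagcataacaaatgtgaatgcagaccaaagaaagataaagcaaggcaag
VEGFA probe 1: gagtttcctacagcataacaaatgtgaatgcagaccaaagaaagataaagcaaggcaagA
EPO probe 2: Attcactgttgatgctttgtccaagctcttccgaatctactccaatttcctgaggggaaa
EPO probe 1: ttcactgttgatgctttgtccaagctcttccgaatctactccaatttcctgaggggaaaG
EPOR probe: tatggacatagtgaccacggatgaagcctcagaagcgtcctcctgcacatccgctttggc

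Levels are log2 intensities after background correction and normalization, on which the lowest possible value is 5.64, a step of 1 is a doubling, and values of different genes cannot be compared because each probe has its own brightness. VEGFA and EDN1 were well above background, by the scanner software's own test, on all 95 arrays, EPOR on 92, and the GLUT-1 probes on 92 and 95. EPO was different: its probes were well above background on 7 and 27 arrays. The 75th percentile of the signal, a measure of how bright an array was, was highest in cortex (1079 to 3387), with brainstem at 469 to 1639, hippocampus at 198 to 1463 and hypothalamus at 643 to 1515.

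A set of 6 arrays stood apart from the rest of their region, with a median correlation under 0.9 with the region's other arrays when the 5 genes were left out. They were the hippocampus arrays of 100 d replicate 3, 120 d replicate 4, 130 d replicate 3, 145 d replicate 4 and newborn replicate 3, all on 1 slide, and the brainstem array of newborn replicate 4. On the 5 hippocampus arrays VEGFA lay between 11.27 and 12.83, against 7.36 to 11.01 on the other 18, EDN1 between 8.69 and 10.63 against 6.14 to 8.7, and EPOR between 7.44 and 8.39 against 6.51 to 7.52. The glycolytic enzyme gene LDHA lay on the same 5 arrays between 9.73 and 10.3, against 11.48 to 14.27, and their 75th percentile of signal between 197.7 and 467.1, against 594 to 1463.3. What part these arrays have in the hippocampus values was not tested, and the hippocampus values of the 5 genes are given with and without them. Slides are numbered here in an arbitrary order. Each of the 14 slides held tissue of a single region, so a difference between regions and a difference between slides cannot be told apart.

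**Figure D1:**
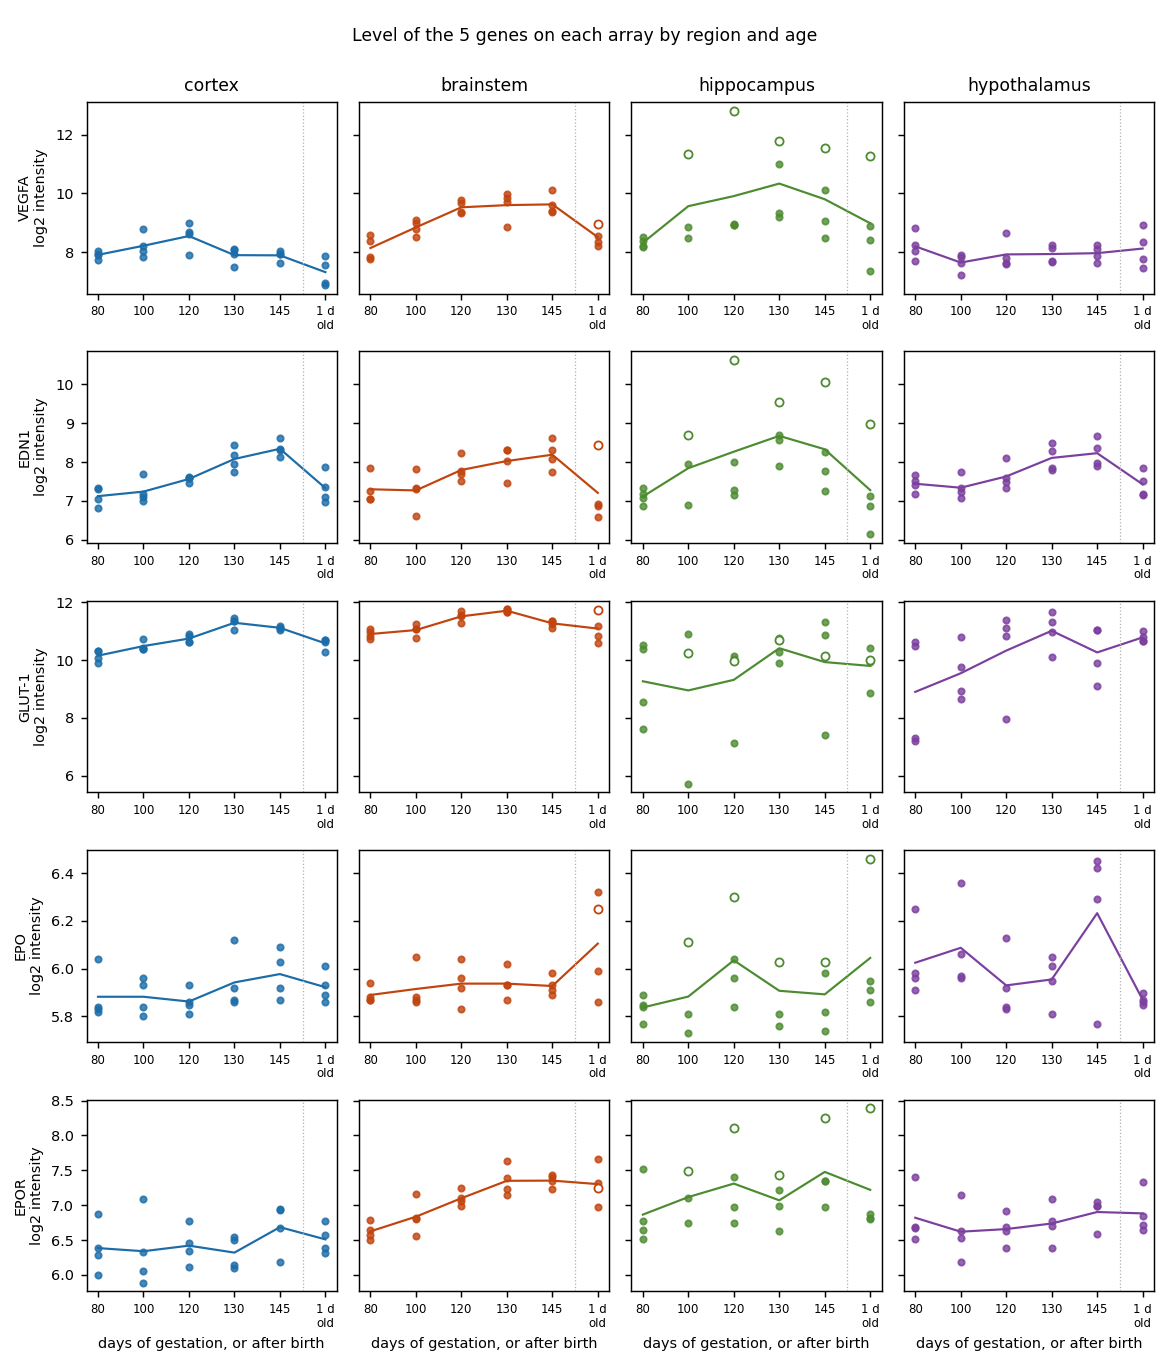
Level of each gene (rows) on every array in the 4 regions (columns) as log2 intensity on the vertical axes, with a scale for each row, against days of gestation and the day after birth; points are arrays, lines join group means, and open points are the 6 arrays that stand apart. EDN1 means climb from 80 d to 145 d in cortex and are lower after birth in every region, the hippocampus VEGFA points at 11.27 to 12.83 are all open, and EPO stays between 5.73 and 6.46.

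VEGFA, the main growth signal for brain vessels, rose with fetal age in brainstem. Its brainstem levels were 8.57, 8.38, 7.82 and 7.78 at 80 d, 8.98, 9.09, 8.51 and 8.79 at 100 d, 9.36, 9.33, 9.66 and 9.76 at 120 d, and 8.86, 9.7, 9.86 and 9.99 at 130 d. All 4 arrays at 130 d lay above all 4 at 80 d, and the means differed by 1.46 ± 0.23 on the log2 scale (SE), or 2.76-fold (limma F test over the 4 fetal ages, adjusted p = 0.000444). In the brainstem 36.8% of 12731 genes passed that test, so a change with age was common there. The share of all genes without overlap between 80 and 130 d was not counted, here or for the genes below. The 3 slides gave differences of 0.39 to 2.2 between 130 and 80 d.

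In cortex the VEGFA mean was highest at 120 d among the ages tested. The course of cortex was not tested against that of brainstem alone. Cortex VEGFA lay at 8.02, 7.74, 7.91 and 7.95 at 80 d, at 8.67, 8.63, 8.99 and 7.9 at 120 d, and at 8.12, 8.06, 7.48 and 7.92 at 130 d. The mean was 0.64 higher at 120 d than at 80 d and was back at the 80 d level at 130 d (difference −0.01 ± 0.22). This course did not pass the test (limma, adjusted p = 0.0787), though it did without 100 d replicate 4 (limma, adjusted p = 0.0413) or without 120 d replicate 4 (limma, adjusted p = 0.00832). In hypothalamus VEGFA means lay between 7.64 and 8.19 over the fetal ages tested, with overlapping groups (limma, adjusted p = 0.682).

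Hippocampal VEGFA scattered widely between arrays. At 80 d its 4 arrays lay close together, from 8.16 to 8.51. At 130 d they read 11.01, 9.35, 11.78 and 9.21, and the difference of 2.02 ± 0.9 did not pass (limma F test, adjusted p = 0.88). Without the 5 arrays that stand apart the difference was 1.54 ± 0.37, for which the single contrast of 130 d against 80 d passed (limma, adjusted p = 0.0404; on all arrays 1.25% of genes were higher by that contrast) but the F test over all ages did not (limma, adjusted p = 0.199). It rests in part on 130 d replicate 1 (11.01), whose 75th percentile of signal (594) was the lowest of the hippocampus arrays kept. The value of 9.35 is the mean of probes that read 8.69 and 10.01.

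At birth VEGFA was lower in brainstem. Its level was 9.39, 9.38, 10.12 and 9.62 at 145 d and 8.55, 8.2, 8.34 and 8.95 in newborn lambs, a difference of −1.12 ± 0.24, or 2.17-fold. The groups did not overlap, and the newborn mean of 8.51 lay between the means of 80 d (8.14) and 100 d (8.84). The brainstem newborn replicate 4, which stands apart, was the highest of the newborn values, and without it the difference was −1.27 ± 0.24. Within the 3 slides it ran from −1.92 to −0.84.

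In cortex the VEGFA levels were 7.94, 7.63, 8.03 and 7.95 at 145 d and 6.93, 6.88, 7.57 and 7.88 after birth, a difference of −0.57 ± 0.23 with overlapping groups. Hippocampal VEGFA differed by −0.82 ± 0.96, and by −1 ± 0.48 without the arrays that stand apart. Hypothalamus alone had a higher newborn mean, by 0.16 ± 0.29, with levels of 7.47 to 8.91 after birth and 7.61 to 8.24 before. Between 130 and 145 d VEGFA means moved by −0.01, 0.03 and 0.03 in cortex, brainstem and hypothalamus and by −0.53 ± 0.96 in hippocampus, or −0.63 ± 0.48 there without the arrays that stand apart.

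EDN1, the precursor of the vessel-constricting peptide endothelin 1, rose with fetal age in cortex. It lay at 7.31, 7.04, 6.82 and 7.32 at 80 d, at 7.09, 7.17, 7.7 and 7 at 100 d, at 7.47, 7.58, 7.62 and 7.59 at 120 d, and at 7.96, 8.45, 7.74 and 8.17 at 130 d. All arrays at 130 d were above all arrays at 80 d, by 0.95 ± 0.17 or 1.93-fold in the mean (limma, adjusted p = 0.00118). The cortex background was 34.9% of 12838 genes. All 3 cortex slides gave a difference between 0.84 and 1.03.

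Elsewhere EDN1 had higher means at 130 d too, but without passing the test over all ages. The difference from 80 d was 0.73 ± 0.26 in brainstem (limma F test, adjusted p = 0.0605; single contrast, adjusted p = 0.0392, by which 14.9% of genes were higher), 0.67 ± 0.21 in hypothalamus (adjusted p 0.0971 and 0.0539, 4.69% of genes higher) and 1.56 ± 0.66 in hippocampus (adjusted p 0.843 and 0.258). Hypothalamic levels were 7.51, 7.41, 7.68 and 7.17 at 80 d and 7.84, 7.8, 8.29 and 8.5 at 130 d. With the slide as a block the hypothalamus passed (limma, adjusted p = 0.0426). The brainstem passed without 80 d replicate 2, 100 d replicate 4 or 130 d replicate 1 (limma, adjusted p = 0.0305, 0.0258 and 0.0236). Leaving out the 5 arrays in hippocampus gave 1.27 ± 0.31 (limma F test, adjusted p = 0.209; single contrast, adjusted p = 0.0429).

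EDN1 was lower after birth in all 4 regions. Cortex levels were 8.3, 8.34, 8.12 and 8.61 at 145 d and 7.36, 6.98, 7.11 and 7.87 after birth, a difference of −1.01 ± 0.18 or 2.01-fold, without overlap. The newborn mean of 7.33 in cortex lay between those of 100 d (7.24) and 120 d (7.57). In hypothalamus 8.36, 7.98, 7.9 and 8.68 stood against 7.52, 7.16, 7.17 and 7.86, a difference of −0.8 ± 0.22, again without overlap, though only 0.04 separated the closest values of the groups.

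Brainstem EDN1 read 8.09, 8.62, 8.31 and 7.74 at 145 d and 6.59, 6.93, 6.87 and 8.44 after birth, a difference of −0.98 ± 0.33. The groups overlapped through newborn replicate 4, the array that stands apart, and without it the difference was −1.39 ± 0.27 with no overlap (as for 15.6% of brainstem genes without that array). Hippocampal EDN1 differed by −1.05 ± 0.73, and by −1.05 ± 0.36 without overlap when the arrays that stand apart were left out, which leaves 3 arrays a group and 11.8% of hippocampus genes without overlap. Within the slides that held both ages the EDN1 difference ran from −2.13 to −0.09. These are the arrays by which the members were chosen, and the share of all genes lower on every slide was not counted, so this is a description.

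GLUT-1, the transporter through which glucose enters the brain, rose with fetal age in cortex and brainstem. Cortex levels were 10.32, 10.31, 9.92 and 10.08 at 80 d, 10.38, 10.39, 10.75 and 10.44 at 100 d, 10.83, 10.62, 10.92 and 10.63 at 120 d, and 11.03, 11.45, 11.36 and 11.35 at 130 d. Values at 130 d all lay above those of every earlier age, a separation not counted over all genes. The difference from 80 d was 1.14 ± 0.13 or 2.21-fold (limma, adjusted p = 2.66e-05), in a region where 34.9% of genes passed. Brainstem levels went from 10.84, 11.08, 10.98 and 10.73 at 80 d to 11.76, 11.66, 11.76 and 11.68 at 130 d, a difference of 0.81 ± 0.11 or 1.75-fold (limma, adjusted p = 0.000131). Over the 6 ages the SD within groups was 0.17 in cortex and 0.25 in brainstem.

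The peak at 130 d was followed by lower levels. In brainstem GLUT-1 read 11.37, 11.25, 11.13 and 11.36 at 145 d, below all 4 arrays at 130 d, a difference of −0.44 ± 0.17. Among all genes the groups at 130 and 145 d did not overlap for 14.8% in brainstem, 6.14% in cortex, 1.35% in hippocampus and 3.17% in hypothalamus. This was the 1 gene and region of 20 combinations without overlap in that step. The cortex difference between 130 and 145 d was −0.18 ± 0.12.

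After birth GLUT-1 was lower in cortex, at 10.69, 10.3, 10.63 and 10.71 against 11.13, 11.05, 11.2 and 11.11 at 145 d. The difference was −0.54 ± 0.12 or 1.46-fold, without overlap. Within the 3 slides it ran from −0.75 to −0.44. In brainstem the newborn arrays spread from 10.6 to 11.75 and the difference was −0.18 ± 0.17, or −0.4 ± 0.13 without replicate 4, which stands apart, with groups that still overlapped.

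Hippocampus and hypothalamus gave GLUT-1 values that could not be read as closely. The 2 probes of the gene differed by at most 0.42 on the log2 scale on all cortex and brainstem arrays, but by more than 1 on 7 of 22 hippocampus arrays and 9 of 23 hypothalamus arrays, with probe 1 minus probe 2 running from −4.56 to 0.23 and from −5.77 to 2.25. Low values sat on particular slides. Hypothalamus slides 1 and 2 had minima of 7.19 and 7.31 and slide 3 had 10.49, and hippocampus slides 6 and 7 had minima of 7.12 and 5.72 against 9.9 and 9.93 on slides 4 and 14. The part of the slide in these values was not tested. On 2 arrays, hippocampus 100 d replicate 2 (5.72) and hypothalamus 120 d replicate 1 (7.98), probe 2 was flagged by the scanner software and the value is that of probe 1.

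**Figure D2:**
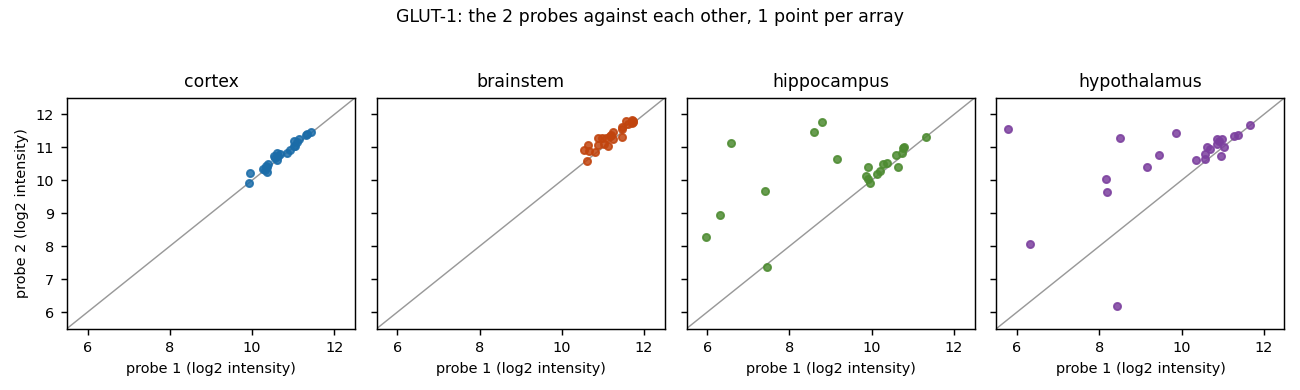
GLUT-1 probe 1 (horizontal axis) against probe 2 (vertical axis), both as log2 intensity, in the 4 regions, with 1 point per array on which both probes were measured and a line of equality. Cortex and brainstem points lie on the line, while 7 of 22 hippocampus and 9 of 23 hypothalamus points lie more than 1 from it.

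With that spread, the difference of 2.12 ± 0.9 between 130 and 80 d in hypothalamus did not pass (limma, adjusted p = 0.496), nor did 1.15 ± 1.05 in hippocampus (limma, adjusted p = 0.977). Newborn minus 145 d was 0.52 ± 0.8 in hypothalamus and −0.13 ± 1.02 in hippocampus. Without the arrays that stand apart the hippocampus differences were 1.05 ± 1.22 (limma, adjusted p = 0.914) and −0.12 ± 1.3. With these standard errors a step as large as that of the cortex would not have been distinguishable from 0.

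EPO, the hormone itself, was at the edge of detection in every region. Its levels over all 95 arrays lay between 5.73 and 6.46, where the floor is 5.64, and 29 arrays had a probe well above background. Of these 14 were from hypothalamus, where all 4 arrays at 100 d, 3 at 80 d and 3 at 145 d were well above background, but none after birth. Hypothalamic levels were 5.77, 6.29, 6.42 and 6.45 at 145 d and 5.86, 5.9, 5.87 and 5.85 in newborn lambs, and the groups overlapped through replicate 1 at 145 d. On the probes that passed the filter on dim probes, newborn minus 145 d was −0.36 ± 0.13 in hypothalamus and −0.11 ± 0.08 in cortex. It went the other way in brainstem (0.26 ± 0.11) and hippocampus (0.29 ± 0.25, or 0.12 ± 0.17 without the arrays that stand apart). No fold is given, because values so near the floor have no reliable order. The age test did not pass in any region (limma, adjusted p from 0.619 to 0.985, and 0.861 in hippocampus without the arrays that stand apart). It used the 1 EPO probe that passed the filter on dim probes in cortex, brainstem and hippocampus, and both in hypothalamus.

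EPOR, which receives the EPO signal, rose with fetal age in brainstem. Levels there were 6.79, 6.64, 6.5 and 6.57 at 80 d, 6.8, 6.56, 7.16 and 6.82 at 100 d, 7.06, 7.1, 6.99 and 7.25 at 120 d, and 7.23, 7.15, 7.39 and 7.63 at 130 d. Groups at 80 and 130 d did not overlap and differed by 0.72 ± 0.13 or 1.65-fold (limma, adjusted p = 0.00183). All 3 brainstem slides gave a difference of 0.51 to 1.06. At 145 d the mean was 7.35, as at 130 d, and after birth 7.3, a difference of −0.05 ± 0.14.

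In the other regions EPOR had no course that passed the test. The difference between 130 and 80 d was −0.07 ± 0.24 in cortex, 0.21 ± 0.32 in hippocampus and −0.08 ± 0.23 in hypothalamus (limma F tests, adjusted p = 0.983, 0.977 and 0.965). Newborn minus 145 d was −0.17 ± 0.23, −0.26 ± 0.37 and −0.02 ± 0.22 in the same order. Without the arrays that stand apart the hippocampus had 0.08 ± 0.27 with age (limma, adjusted p = 0.993) and −0.39 ± 0.25 at birth, where the groups of 3 then did not overlap, as for 11.8% of genes. The cortex held the dimmest EPOR arrays, with 2 of 4 well above background at 100 d and 3 of 4 at 80 d.

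**Figure D3:**
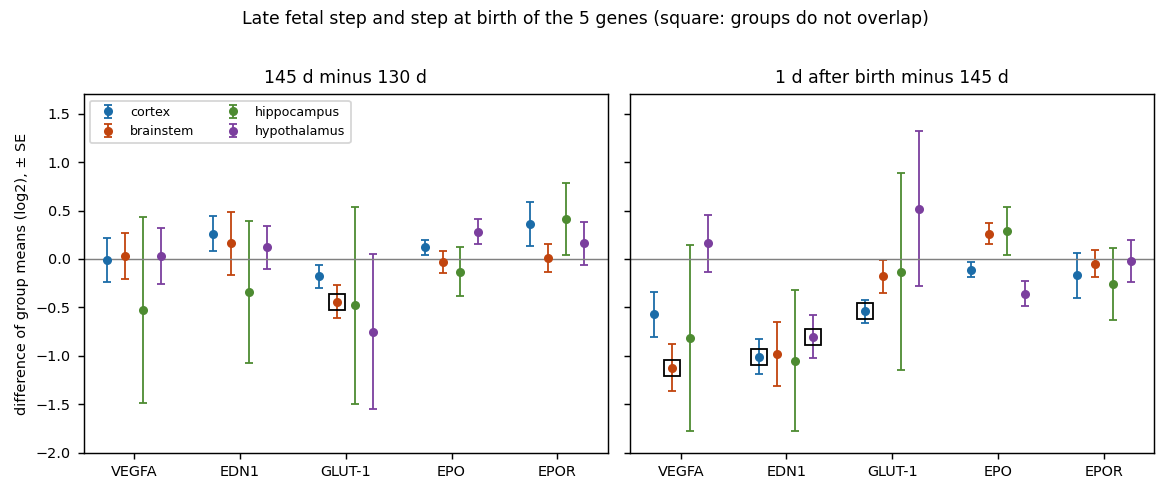
Difference of group means on the log2 scale (points, vertical axes) with its standard error from limma (bars) for the 5 genes in the 4 regions, for 145 d minus 130 d on the left and 1 d after birth minus 145 d on the right; squares mark groups that do not overlap. EDN1 lies below 0 in all 4 regions after birth, between −1.05 and −0.8, and the EPO points come from the probes that passed the filter.

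Over the 20 combinations of gene and region, 5 passed the fetal age test, all with higher levels at 130 d than at 80 d. They were 2 of 5 genes in cortex, where 34.9% of all genes passed and 16.8% passed with a higher level at 130 d, and 3 of 5 in brainstem, where these shares were 36.8% and 15.7%. None passed in hippocampus (0.803% of all genes, 0.520% higher) or hypothalamus (7.63%, 3.77% higher). The unadjusted p of the F test was under 0.05 for EDN1 in hypothalamus (0.0102) and for none in hippocampus. In the step at birth 4 of the 20 had groups that did not overlap, each of them lower in newborn lambs: EDN1 and GLUT-1 in cortex, VEGFA in brainstem and EDN1 in hypothalamus. Over all genes the groups at birth did not overlap for 3.45% of cortex genes, 8.45% of brainstem, 1.47% of hippocampus and 11.8% of hypothalamus genes, with the newborn group lower for 1.93%, 2.96%, 0.836% and 4.44%. The members were put together with this step known, so these counts are a description.

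**Figure D4:**
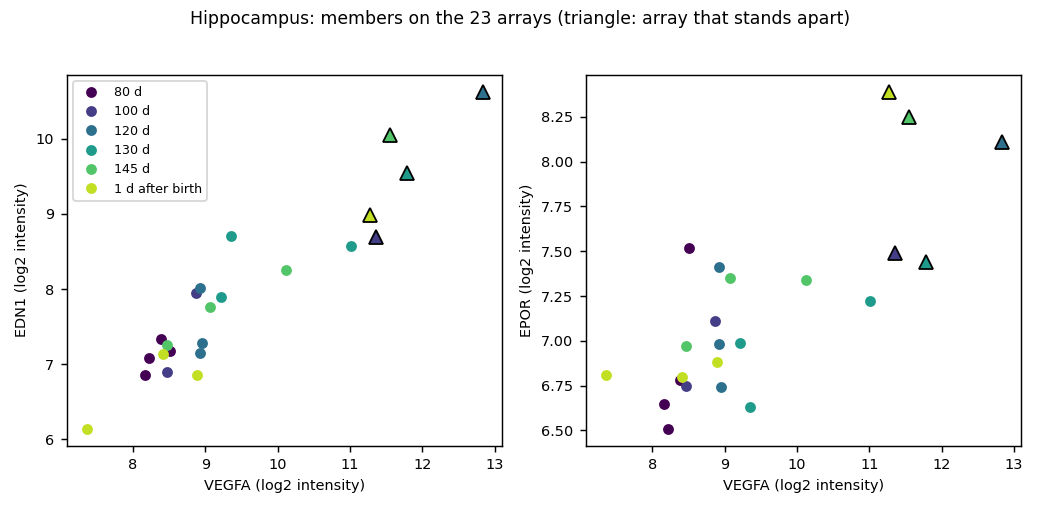
Levels on the 23 hippocampus arrays as log2 intensity, with VEGFA on the horizontal axes and EDN1 (left) or EPOR (right) on the vertical axes; colors give the age and triangles the 5 arrays that stand apart. The triangles lie at VEGFA levels of 11.27 to 12.83 and the circles at 7.36 to 11.01.

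Levels between regions were compared over the 80 to 130 d arrays for the 4 genes kept in all regions, EPO not being among them. VEGFA had means of 9.53 in hippocampus, 9.03 in brainstem, 8.14 in cortex and 7.92 in hypothalamus, and differed between regions (limma F test, adjusted p = 6.82e-07, against 78.3% of 12411 genes called). Brainstem exceeded hypothalamus by 1.11 ± 0.26 and cortex by 0.89, whereas hippocampus and brainstem (adjusted p = 0.112) and cortex and hypothalamus (adjusted p = 0.521) did not differ beyond their spread in limma. Single pairs of regions differed for 47.2% of genes (cortex and brainstem), 45.7% (cortex and hippocampus), 42.3% (cortex and hypothalamus), 45.8% (brainstem and hippocampus), 39.3% (brainstem and hypothalamus) and 39.5% (hippocampus and hypothalamus). Without the arrays that stand apart the hippocampus and brainstem means differed by 0.08 ± 0.15. With the slide as a random block, 49.4% of all genes were called, VEGFA still passed (limma, adjusted p = 0.00104), and the difference of cortex and brainstem no longer did (limma, adjusted p = 0.0813). With each region normalized on its own, cortex minus brainstem was −0.2 and cortex minus hippocampus −0.39, neither past the threshold (limma, adjusted p = 0.503 and 0.179). That scaling moved the median of all genes by 0.53 and 0.77 in these pairs. Relative to the median VEGFA was at −0.73 and −1.16.

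GLUT-1 had means of 11.3 in brainstem, 10.67 in cortex, 9.95 in hypothalamus and 9.49 in hippocampus (limma F test, adjusted p = 0.000141). Neighbours in that order did not pass (limma, adjusted p = 0.159, 0.104 and 0.327). Brainstem exceeded hippocampus by 1.81 ± 0.37, or by 2.05 without the arrays that stand apart. These tests share an error over all regions, and the SD within groups was 1.62 in hippocampus and 1.19 in hypothalamus. It was 0.17 in cortex and 0.25 in brainstem. Every brainstem array lay above every cortex array of the same age from 80 to 130 d. The closest were 10.77 in brainstem and 10.75 in cortex at 100 d. A test of this pair alone was not run, and such separation was not counted over all genes. With each region normalized on its own, cortex minus brainstem was 0.21 in place of −0.62, or −0.32 relative to the median of all genes. With the slide as a random block the regions still differed (limma, adjusted p = 0.00981). With the brighter probe in place of the mean of the pair, cortex exceeded hippocampus by 0.3 (limma, adjusted p = 0.371) in place of 1.19 ± 0.37 (limma, adjusted p = 0.00785).

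EPOR means were 7.09 in hippocampus, 6.98 in brainstem, 6.71 in hypothalamus and 6.37 in cortex (limma F test, adjusted p = 5.52e-06). Cortex was below brainstem by 0.61 and below hippocampus by 0.72, each with an SE of 0.12, and hippocampus and brainstem did not differ beyond their spread (limma, adjusted p = 0.477). EDN1 means lay between 7.5 in cortex and 7.97 in hippocampus and did not pass (limma F test, adjusted p = 0.127, and 0.758 without the arrays that stand apart), though they did when hippocampus 100 d replicate 1, 120 d replicate 1 or 120 d replicate 3 was left out (limma, adjusted p = 0.0333, 0.0366 and 0.046). With the slide as a random block EPOR still passed (limma, adjusted p = 0.00347). Without the arrays that stand apart cortex EPOR minus hippocampus EPOR was −0.58. Normalizing each region on its own shifted the median of all genes by 0.53 to 0.77 between cortex and the other regions, and under it the cortex difference from hypothalamus in EPOR turned from −0.34 to 0.05, or −0.64 relative to that median.

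The course from 80 to 130 d did not pass a test of difference between regions for any of the 4 genes (limma interaction F test, 5.13% of all genes called). The closest was VEGFA, with an adjusted p of 0.398. That value was 0.00216 without the arrays that stand apart. A single one of them, hippocampus 120 d replicate 4, was enough to bring it below 0.05 when left out.

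Other genes of the oxygen and vessel pathways were read from 7 lists with a probe for 52 genes. Of those tested, 18 of 51 passed the fetal age test in cortex (35.3%), 19 of 50 in brainstem (38%), 2 of 50 in hippocampus (4%) and 5 of 50 in hypothalamus (10%), beside backgrounds of 34.9%, 36.8%, 0.803% and 7.63%. Without the arrays that stand apart 3 of 50 passed in hippocampus, beside 1.74% of all genes. In cortex 11 of the 18 were higher at 130 d and 7 lower, and in brainstem 10 and 9. The lists therefore moved in both directions, in shares close to those of all genes in cortex and brainstem. The counts of single lists below stand beside the same backgrounds and rest on few genes each.

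**Figure D5:**
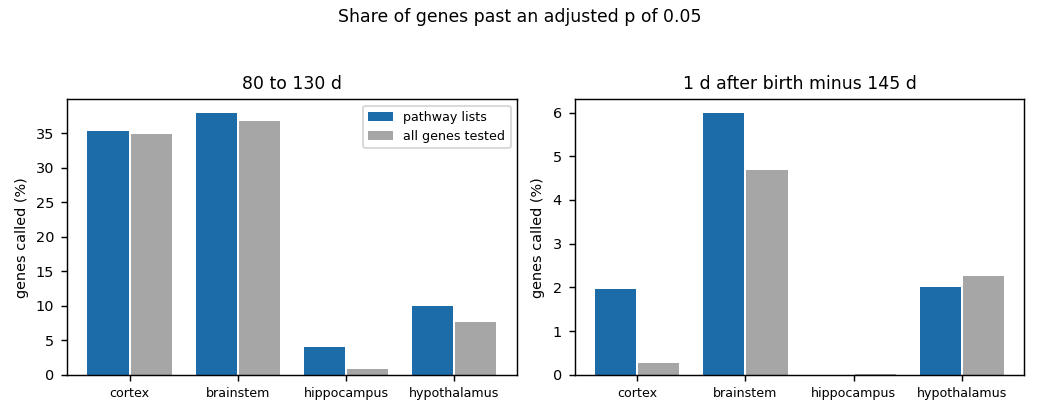
Percent of genes past an adjusted p of 0.05 (vertical axes, from 0) in the 7 pathway lists together (blue) and over all genes tested (grey) in the 4 regions, for the fetal age test on the left and the step at birth on the right. The blue and grey bars are of like height in cortex (35.3% and 34.9%) and brainstem (38% and 36.8%) on the left.

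Among the HIF regulators 2 of 6 passed in cortex and 2 of 6 in brainstem, beside 34.9% and 36.8% of all genes. Those that passed had lower levels at 130 d. HIF1A, an oxygen-regulated subunit, fell by 0.61 in brainstem (SE 0.15, limma F test, adjusted p = 0.000272). EPAS1, on the same list, had higher means at 130 d, by 0.26 ± 0.08 in cortex and 0.15 ± 0.1 in brainstem. It did not pass (limma F test, adjusted p = 0.0707 and 0.423). CITED2, which competes with HIF1A for its coactivators, had differences of −0.68 ± 0.12 in cortex and −0.8 ± 0.15 in brainstem (limma, adjusted p = 0.00108 and 0.00251). In cortex HIF1A passed over all ages (limma, adjusted p = 0.0197) with a difference of −0.07 ± 0.13 between the end points.

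The VEGF and angiopoietin list had 3 of 11 genes past the test in cortex and 4 of 10 in brainstem. FLT1, a VEGF receptor, was higher at 130 d by 0.25 ± 0.08 in cortex and 0.35 ± 0.1 in brainstem (limma, adjusted p = 0.0468 and 0.0311). PGF, a VEGF relative, rose by 0.75 ± 0.13 in brainstem and 0.72 ± 0.15 in hypothalamus. FGF1, a growth factor of vessels and neurons, passed in all 4 regions, from 1.19 ± 0.21 in hypothalamus to 2.9 ± 0.32 in hippocampus (2.85 ± 0.36 without the arrays that stand apart). TIE1, an endothelial receptor, passed in cortex over all ages, with −0.18 ± 0.1 between the end points.

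In the endothelin and vasoactive list 3 of 13 passed in cortex and 3 of 13 in brainstem. The endothelin receptor EDNRB fell with age in both, by 0.47 in cortex (limma, adjusted p = 0.0361) and by 0.98 in brainstem (limma, adjusted p = 1.27e-05), while its ligand EDN1 rose in cortex. PTGS2, the inducible cyclooxygenase, rose by 1.64 ± 0.18 in cortex, and NOS3, the endothelial nitric oxide synthase, by 0.84 ± 0.16. PTGS1, the constitutive cyclooxygenase, fell by 1.37 in brainstem.

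Of the other glucose transporters 4 of 5 passed in cortex, 2 of 5 in brainstem and 2 of 5 in hypothalamus. SLC2A3, the neuronal transporter, rose by 0.85 ± 0.16 in cortex and 1 ± 0.21 in hypothalamus. SLC2A8 rose in cortex, brainstem and hypothalamus by 0.96 to 1.27. SLC2A4, the insulin-dependent transporter, rose by 0.44 ± 0.1 and SLC2A2, the liver-type transporter, fell by 0.82 in cortex. The cortex median of this list was 0.74, against −0.03 over all genes.

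Among the glycolysis targets of HIF 3 of 6 genes passed in cortex and 4 of 6 in brainstem. LDHA, which makes lactate, rose by 0.95 ± 0.17 in cortex and fell by 0.48 in brainstem. GAPDH fell by 0.84 in cortex and rose by 0.92 ± 0.24 in brainstem. ALDOA, an enzyme of the glycolytic pathway, rose by 1.04 ± 0.19 in cortex, and SLC16A1, the lactate and ketone transporter of the blood-brain barrier, by 1.37 ± 0.23 in brainstem. Whether cortex and brainstem differ in these genes was not tested.

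The erythropoietin signalling list was led by TF, which carries iron to red cell precursors and is made in brain by oligodendrocytes. It rose in all 4 regions, by 3.75 ± 0.16 in brainstem to 5.8 ± 0.95 in hippocampus (6.42 ± 0.54 without the arrays that stand apart). CX32, an oligodendrocyte marker, was also higher at 130 d in all 4, by 0.79 to 4.25. STAT5A, a transducer of the EPO signal, rose by 0.4 ± 0.08 in cortex, and KIT and KITLG, a receptor and ligand of early blood cells, fell by 0.28 and 0.3 in brainstem. In the list of other hypoxia-induced genes, the chemokine receptor CXCR4 fell by 1.01 in cortex and MIF, a cytokine, by 0.53 in brainstem.

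At birth 1 of 51 list genes was called in cortex, 3 of 50 in brainstem, none in hippocampus and 1 of 50 in hypothalamus, beside 0.265%, 4.69%, 0.00765% and 2.27% of all genes. These list counts are 1.96%, 6% and 2% in cortex, brainstem and hypothalamus, and rest on 1 to 3 genes each. VDUP1, a thioredoxin-binding protein that limits glucose uptake, was higher in newborn lambs in cortex by 1.45 ± 0.25 (limma, adjusted p = 0.0141) and in brainstem by 1.02 ± 0.23 (limma, adjusted p = 0.0156). The fructose transporter SLC2A5 was higher in brainstem by 0.79 ± 0.21 and SLC16A1 lower, at −0.84 ± 0.21. CXCR4 was lower in hypothalamus, at −1.27 ± 0.21 (limma, adjusted p = 0.0069).

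VEGFA, EDN1 and GLUT-1 are made or used in vessel cells, and in tissue samples more vessel per sample and more transcript per cell cannot be told apart. Of 15 endothelial markers 9 had a probe and 7 of those were well above background. Their summed level was 12.57 to 12.85 in cortex at 80 d and 12.84 to 13.06 at 130 d, and 11.79 to 12.41 and 12.51 to 12.91 in brainstem. Most of the sum was ABCG2, with a cortex median of 12.34 against 12.76 for the sum. Between 145 d and the newborn the ranges overlapped in all 4 regions, with 12.37 to 13.04 and 12.68 to 13.05 in cortex. ABCB1, a drug pump of the blood-brain barrier, was higher after birth by 0.95 ± 0.16 in cortex and 0.99 ± 0.2 in brainstem (limma, adjusted p = 0.0123 and 0.00842). The other endothelial markers tested did not pass there. They lay between −0.11 ± 0.08 (FLT1) and 0.11 ± 0.16 (ABCG2) in cortex. In brainstem they lay between −0.56 ± 0.24 (FLT1) and 0.52 ± 0.23 (TIE1). Pericyte markers had no probe. The part of vessel content in the 5 genes' values was not tested.

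Astrocyte markers had 5 of 9 genes on the array, and in cortex all 5 were higher at 130 d than at 80 d by the single contrast. GFAP was higher at 130 d in all 4 regions, by 1.56 to 2.57, and EAAT2 by 0.7 to 1.95. AQP4, EAAT1 and GJA1 passed that contrast in cortex only, with EAAT1 at −0.14 ± 0.19 in brainstem. The summed level, most of it AQP4, went from 12.93 to 14.27 at 80 d to 15.12 to 15.57 at 130 d in cortex. HBB, a hemoglobin gene of red cells, was higher at 130 d in cortex, brainstem and hypothalamus by 1.82 to 2.14. Its hippocampus difference of 0.75 ± 0.76 did not pass (limma, adjusted p = 0.63). AHSP, the other red cell marker with a probe, passed in no region. Its differences were −0.51 ± 0.37 (brainstem), −0.4 ± 0.46 (hypothalamus), −0.13 ± 0.31 (cortex) and 0.16 ± 0.38 (hippocampus). At birth HBB differed by 0.2 ± 0.46 in cortex and −0.55 ± 0.49 in brainstem. The labelled tissue was checked only thinly, as 1 of 10 neuron markers (NEUROD1) and 1 of 8 oligodendrocyte markers (CX32) had a probe. TTR, the marker of the choroid plexus, was bright in brainstem samples (14.58 to 18.55). It ranged more widely in hippocampus (9 to 18.16), hypothalamus (6.77 to 16.97) and cortex (7.42 to 16.14). The part of choroid plexus in the values of any region was not tested.

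The named genes with the course most like that of each member were found by Pearson correlation over the 24 group means, each centred on its region, among 891 genes. VEGFA was closest to GRIA3, a glutamate receptor subunit (r = 0.84), SFTPC (r = 0.75) and NR3C1, the glucocorticoid receptor (r = 0.74). EDN1 was closest to GGCX (r = 0.88), NR3C1 (r = 0.77) and THRB, a thyroid hormone receptor (r = 0.75). GLUT-1 followed LPAR1 (r = 0.81), PYGB, the brain glycogen phosphorylase (r = 0.79), and TF (r = 0.79), and EPOR followed SRP14 (r = 0.86), SCD (r = 0.84) and IL3 (r = 0.84). The points share arrays, and without hippocampus the nearest gene stayed the same for VEGFA, EDN1 and GLUT-1 and was MYL11 for EPOR. SFTPC stayed among the 3 nearest of VEGFA and SRP14 among those of EPOR. NR3C1, THRB, PYGB, TF, SCD and IL3 were then no longer among the 3 nearest of any member.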

How the data were processed

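Total RNA of each tissue sample was labeled with Cy3 and hybridized to 1 array. The deposited scanner files hold spot and background intensity values, made by the authors with Feature Extraction 10.1.1.1, and processed intensity values from the same software. An accompanying table of log2 values for the whole series, also deposited, served as an alternative. Each of its 95 columns correlated best with its own array (slopes of 0.877 to 0.893 on the values computed here), and column medians were 9.04 to 9.1, so scale and direction are known. The study's methods name background correction and quantile normalization in limma, and the kind of background correction is not given in the sources used here.

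Mean intensities were background corrected by normexp with an offset of 50, its parameters taken from the 77 negative control spots of each array because limma's usual fit was unreliable on 12 arrays. They were quantile normalized over all 95 arrays. Probes had to reach, on 4 or more arrays of a region, 1.1 times the level below which 95% of negative control spots lay, spots flagged as outliers were left out, and probes of a gene were averaged. Limma 3.58.1 in R 4.3.3 fitted each region, with Benjamini-Hochberg adjustment over all genes and a threshold of 0.05. The 5 genes were tested on 80 to 130 d arrays only, and pathway list genes and cell type markers also at birth. Standard errors of the late fetal step and the step at birth come from fits of all 6 ages. Slides were tried as a block, and arrays limit the precision by their number, 3 or 4 a group. The tests were tried on simulated data.

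The text names all 5 members, up to 4 genes per pathway list and test by lowest adjusted p, cell type markers, and 3 genes nearest to each member measured in all regions. Members and lists were chosen with earlier results of these data known. A planned search of promoters for motifs was not run. Alternatives were other background corrections, normalizations, filters, probe rules and variance models, blocks, and leaving out each array. Replicate numbers, which the labels do not tie to animals, were not used to pair samples. Probe sequences are the array's own annotation. Figures were drawn with matplotlib 3.10.9.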

Additional observations from a re-analysis of the deposited data

Results flagged for a closer look

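Of 115 groups of 4 arrays of a member in a region, 10 held an array far from the other 3 by Dixon's test, where chance flags about 1 in 20, or 5.8. In hippocampus at 120 d replicate 4 VEGFA was 12.83, with 8.93 to 8.95 on the others, and in newborn replicate 3 EPOR was 8.39 (others 6.8 to 6.88) and EPO 6.46 (others 5.86 to 5.95). Both arrays are among those that stand apart. GLUT-1 was low at 7.12 in hippocampus 120 d replicate 1 (others 9.97 to 10.15) and at 7.98 in hypothalamus 120 d replicate 1 (others 10.85 to 11.38), where its probes disagree or 1 probe was left out. GLUT-1 in cortex 100 d replicate 3 was 10.75 (others 10.38 to 10.44). EPOR in hypothalamus 145 d replicate 4 was 6.58 (others 6.99 to 7.05). EPO, near its floor, was 6.04 in cortex 80 d replicate 4 (others 5.82 to 5.84), 5.94 in brainstem 80 d replicate 4 (others 5.87 to 5.88) and 6.05 in brainstem 100 d replicate 4 (others 5.86 to 5.88).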

How the results depend on the processing

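Of the 20 combinations of member and region, 5 passed the fetal age test, and 5 to 6 did leaving out each array. With the 145 d arrays added 8 passed, and so did 41.1% of all cortex genes, 50.8% of brainstem, 2% of hippocampus and 10.3% of hypothalamus genes. The 145 d arrays are among those by which the members were chosen, so the 8 are a description. Birth groups without overlap numbered 4, or 7 without the 6 arrays that stand apart, a setting chosen after seeing the data that leaves 3 arrays in some groups, with 15.6% of all brainstem and 11.8% of all hippocampus genes then without overlap (4 to 6 leaving out each array, with 6 without hippocampus newborn replicate 3). Combinations without overlap between 130 and 145 d numbered 1, and 1 to 2 leaving out each array, with 2 without cortex 130 d replicate 1, cortex 130 d replicate 4, cortex 145 d replicate 1 or hypothalamus 145 d replicate 1. Of the 4 genes tested, 3 passed the region test (3 to 4 leaving out each array) and 0 the region by age test (0 to 1, with 1 without hippocampus 120 d replicate 4, and 1 without the 5 or the 6 arrays that stand apart). Pathway list calls at birth numbered 5, and 8 with limma's usual normexp fit, 8 with the series table, 9 with the slide as a block, and 2 to 8 leaving out each array (8 without brainstem newborn replicate 1, 3 without newborn replicate 2, 2 without 145 d replicate 4). List calls with fetal age numbered 44 (40 to 46).

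With region-wise normalization EDN1 in cortex minus hippocampus was 0.4 in place of −0.47 and EPOR in cortex minus hypothalamus 0.05 in place of −0.34, since this scaling moved the median of all genes. The causes of the other changes were not tested. The slide as a fixed block could not be fitted between regions.

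The labels do not say that a replicate number marks an animal, and the data do not settle it. Deviations of same-numbered samples of different regions at 1 age correlated by −0.37 to 0.57 (median 0.05, over 0.1 in 54 of 141 pairs), and those with different numbers by −0.38 to 0.67 (median −0.05, over 0.1 in 91 of 423). Of 95 arrays 47 correlated best with their own number, where 1 in 4 would be 23.8, which is a hint from the data and not from the design. Within cortex, same-numbered arrays of different ages, which are different animals, had a median of 0.2, against −0.1 for different numbers. Under the replicate block the region test gave adjusted p (limma) of 5.11e-07 for VEGFA, 9.68e-05 for GLUT-1, 3.13e-06 for EPOR and 0.113 for EDN1, the list calls at birth were 8, and no call on a member changed. EPO, at the floor, and GLUT-1 in hippocampus and hypothalamus are limited by signal over background and by probe disagreement.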
